A study of Mus musculus with 6 samples.

Results

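The genes of the smooth muscle contractile apparatus were followed in the developing mouse uterus, in which the muscle layer, or myometrium, surrounds the endometrium. A list of 39 genes was taken, chosen by name, and 34 of them had at least 1 probe set whose platform annotation gave that gene alone, of 16813 genes measured in all. Of the 34, 32 carried the listed symbol and 2, Mkl1 and Mkl2, stood in the annotation under their current symbols Mrtfa and Mrtfb. For Cnn1, Srf, Ppp1r14a, Vcl and Itga7 no level was analysed here. The 34 genes had 73 probe sets, and each gene was followed by its brightest one.

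RNA from uteri of 2-week-old intact females, for which the labels give no treatment, was hybridised to Affymetrix arrays. There were 3 arrays labelled Arid1a d/d and 3 labelled Arid1a f/f, where d usually stands for a deleted and f for a floxed allele of Arid1a, the gene of a DNA-binding component of SWI/SNF, a complex that moves nucleosomes. The labels name neither the Cre that made the deletion nor the cells in which it acts, nor do they say whether RNA was pooled or each array had an animal of its own. The comparison asks which transcripts of the contractile genes differed between the genotypes in a study of the development of endometrial glands. The arrays do not show which cells of the uterus a transcript came from.

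Smooth muscle contracts when calcium enters through voltage-gated channels, binds calmodulin and activates myosin light chain kinase, and it relaxes when myosin phosphatase removes the phosphate. The filaments are held at dense bodies and adhesion plaques by linker proteins and by desmin. Many of the genes involved are switched on by serum response factor, which binds the CArG box, with its cofactors myocardin and the myocardin-related factors. In the mouse the uterine muscle layers form from the mesenchyme during the first weeks after birth.

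The targeted gene was checked first. The 1 probe set of Arid1a stood at 6.98, 7.06 and 7.04 in d/d arrays 1, 2 and 3, against 7.54, 7.58 and 7.71 in f/f arrays 1, 2 and 3 (log2 intensity). All d/d values lay below all f/f values (log2 difference -0.58 ± 0.09 SE; limma adjusted p = 0.0342 over all probe sets). Array medians lay between 6.34 and 6.59 on the linear scale. Of the d/d arrays, number 1 stood apart: over all probe sets it correlated at 0.990 with d/d 2 and 0.991 with d/d 3, and at 0.995 with f/f 1. Arrays d/d 2 and d/d 3 correlated with each other at 0.995. Array f/f 1 in turn correlated at 0.994 with f/f 2 and 0.993 with f/f 3, so it too was nearest to d/d 1. Whether the arrays numbered 1 share a batch was not tested. The medians of the contractile genes, of their roles and of the marker lists are therefore given with and without d/d 1, as are the genes that moved most. Such a fit still holds f/f 1, and the contractile genes are also given without both arrays numbered 1.

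None of the 34 contractile genes passed the threshold, an adjusted p under 0.05 over all genes, and the smallest was 0.168, that of Pdlim3. The background was 1.14% of all genes past that threshold in either direction, 0.63% higher and 0.512% lower in d/d. The levels nonetheless leaned one way: 32 of the 34 were lower in d/d uteri on average, against 53.4% of all genes, and 2, Myocd and Oxtr, were higher. The median log2 difference, d/d minus f/f, was -0.17 over the 34 genes and -0.01 over all genes tested. The 34 were brighter than genes in general, with a median log2 level of 8.05 against 4.17 over all genes. The shares and medians of all genes, here and below, were not matched for level. In bulk tissue fewer smooth muscle cells, less RNA per cell and a change in other cells that make these transcripts cannot be told apart.

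Without adjustment, 6 of the 34 had a p under 0.05 in limma, all 6 lower in d/d, against a background of 6.88% of genes lower at that p. For 7 of the 34, or 20.6%, the highest d/d array was still under the lowest f/f array, against 9.42% of all genes. The reverse held for 0 of the 34, against 7.1% of all genes. These 7 were Tpm1, Cnn2, Tagln, Des, Pdlim3, Pdlim7 and Csrp1. The 95% interval of the difference included 0 for 28 of the 34. No interval reached below -0.88, that of Mkl2, which corresponds to 0.544 of the f/f level, or above 0.59, that of Kcnmb1. A p that misses the threshold does not show that the levels were equal.

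**Figure D1:**
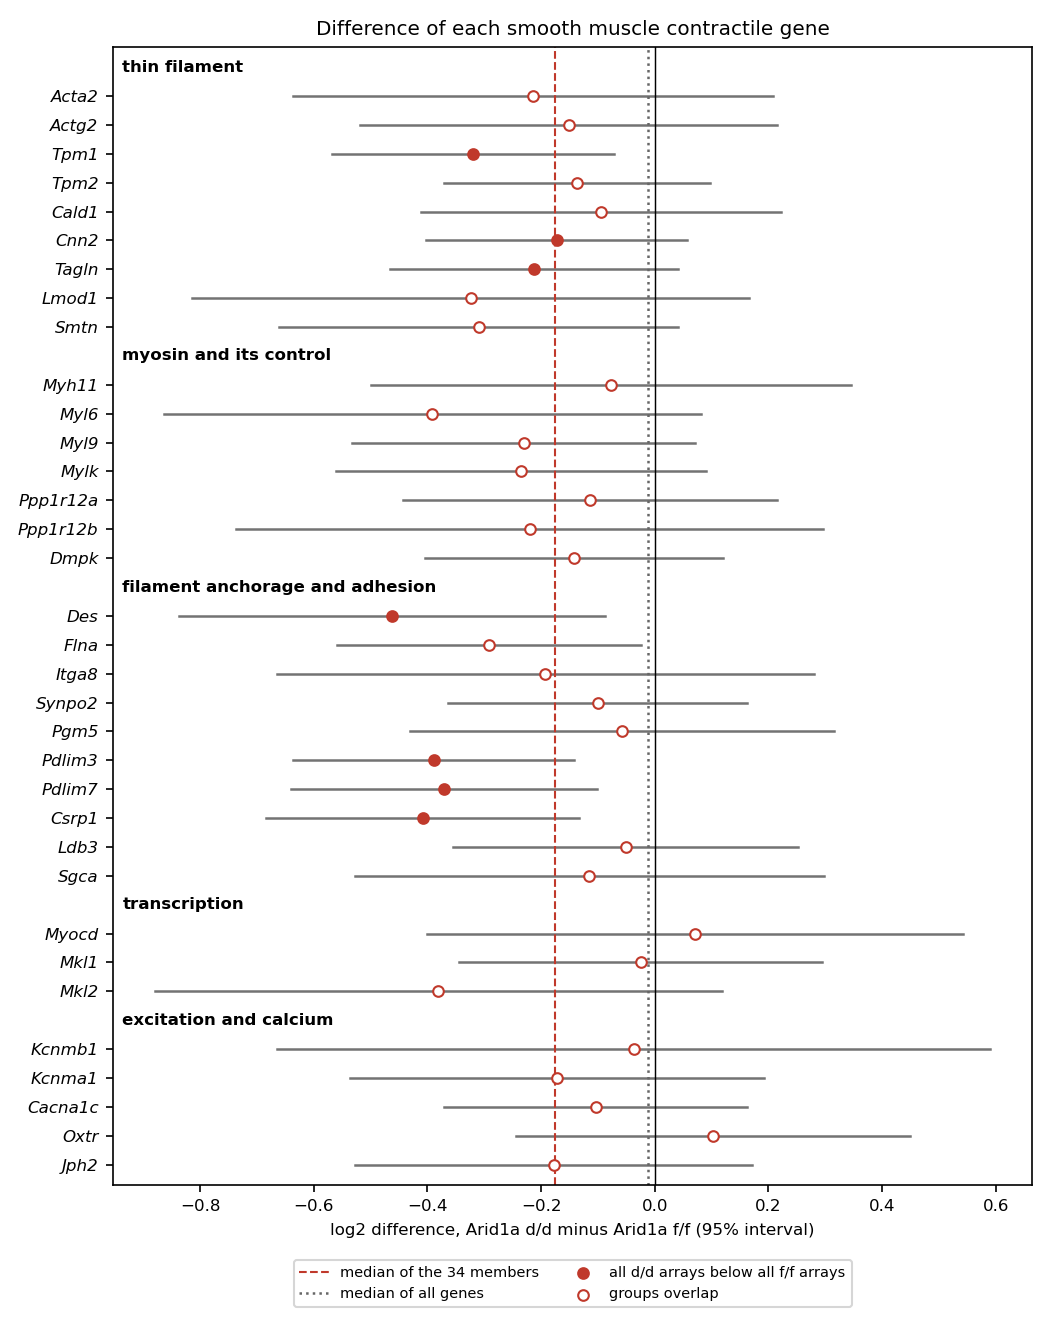
Each row is 1 gene, grouped by role; the point is the log2 difference (Arid1a d/d minus Arid1a f/f, 3 arrays each) and the bar its 95% interval from limma. Filled points mark the 7 genes without overlap between genotypes. The dashed line at -0.17 is the median of the 34 genes and the dotted line at -0.01 the median of all genes.

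The promoters were searched for the CArG box, in its strict form of 2 C, 6 A or T, and 2 G on either strand, because it is the binding motif of serum response factor. The window held 250 bases before and 50 bases after each annotated start (RefSeq, GRCm38.p6). Of the 39 genes, 34 had an entry (30 of them measured), and 6 held at least 1 box, or 17.6%, against 1.81% of 27025 genes with an entry. Actg2, Tagln, Myh11, Itga7 and Myocd had no entry and were not searched. Since many of these genes are known for this motif, the higher share describes the list. Those boxes are shown here with 10 bases on either side, 5′ to 3′ on the gene's strand, with the box in capitals.
Cnn2 (chr10:79988534-79988563, plus strand, first base of the box 56 bases before the start): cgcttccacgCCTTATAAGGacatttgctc
Myl6 (chr10:128493040-128493069, minus strand, 50 bases before the start of 1 of its 2 promoters): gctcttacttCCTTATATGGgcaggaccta
Myl9 (chr2:156775293-156775322, plus strand, 161 bases before the start): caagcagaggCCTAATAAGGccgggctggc
Ldb3 (chr14:34588697-34588726, minus strand, 35 and 109 bases before its 2 starts): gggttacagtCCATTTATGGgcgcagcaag
Vcl (chr14:20929161-20929190, plus strand, 227 bases before the start): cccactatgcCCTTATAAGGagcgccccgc
Srf (chr17:46556225-46556254, minus strand, 82 bases before the start): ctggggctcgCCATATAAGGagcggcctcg
Srf (chr17:46556205-46556234, minus strand, 62 bases before the start): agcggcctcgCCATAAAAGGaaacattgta
Cnn2 and Vcl share the same 10 letters, and Srf, the gene of the factor itself, is the 1 gene with a pair of boxes. The 4 measured genes with a box, Cnn2, Myl6, Myl9 and Ldb3, had a median log2 difference of -0.20, and the 26 measured genes with an entry and no box had -0.19. Their ranges overlapped, at -0.39 to -0.05 with a box and -0.46 to 0.10 without.

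Genes of the thin filament, the actin cable along which myosin pulls, were lower in d/d uteri for 9 of 9 measured, with 0 past the threshold and a median log2 difference of -0.21 (-0.29 without d/d 1, -0.12 without d/d 2). Tpm1, a tropomyosin that lies along actin, stood at 10.37, 10.03 and 10.15 in d/d arrays 1, 2 and 3, against 10.53, 10.44 and 10.55 in f/f arrays. The groups did not overlap, and d/d 1 was the d/d array nearest to f/f (log2 difference -0.32 ± 0.11 SE; limma adjusted p = 0.270). Its second probe set gave -0.45 ± 0.12 (limma adjusted p = 0.214 over probe sets) with groups that did not overlap either, while another bright one gave 0.14. Tpm2, the other tropomyosin, stood at 11.45, 11.23 and 11.38 in d/d arrays, against 11.42, 11.43 and 11.63 in f/f arrays. These values overlapped, and d/d 1 exceeded 2 of the f/f arrays (log2 difference -0.14 ± 0.10 SE).

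Tagln, or transgelin, an actin-binding protein and early marker of smooth muscle, stood at 11.06, 10.71 and 10.97 in d/d arrays, against 11.16, 11.07 and 11.15 in f/f arrays. The gap between the groups was narrow, since d/d 1 lay next to f/f 2 (log2 difference -0.21 ± 0.11 SE; limma adjusted p = 0.512). Smtn, or smoothelin, a protein of contractile smooth muscle, stood at 6.91, 6.35 and 6.58 in d/d arrays, against 6.88, 6.80 and 7.07 in f/f arrays. Here d/d 1 lay among the f/f arrays and the other d/d arrays below them (log2 difference -0.31 ± 0.15 SE; limma adjusted p = 0.486). Cnn2, a calponin, whose box is shown above, stood at 9.31, 9.24 and 9.31 in d/d arrays, against 9.45, 9.32 and 9.61 in f/f arrays. Its d/d arrays lay close together, and the highest of them narrowly missed f/f 2 (log2 difference -0.17 ± 0.10 SE; limma adjusted p = 0.578).

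The smooth muscle actins showed the same leaning without separation. Acta2, alpha smooth muscle actin, stood at 6.09, 5.35 and 5.66 in d/d arrays, against 6.07, 5.80 and 5.87 in f/f arrays. Its probe set was dim beside that of Tagln, with means over all arrays of 5.81 and 11.02. The other probe set of Acta2 averaged 3.11, with a difference of -0.02, and how well either reports the gene was not tested. On the brighter probe set of Acta2 the highest of the 6 was d/d 1 and the lowest d/d 2. The spread within d/d (SD 0.37) was larger than the difference (-0.21 ± 0.18 SE; interval -0.64 to 0.21). The difference of Acta2 was -0.41 without d/d 1 and -0.04 without d/d 2. Actg2, gamma enteric actin, which is abundant in visceral muscle, stood at 9.16, 9.19 and 9.39 in d/d arrays, against 9.16, 9.28 and 9.75 in f/f arrays. For Actg2 the spread lay within f/f instead (SD 0.31), with f/f 3 the highest and f/f 1 level with d/d 1. Lmod1, a leiomodin that starts actin filaments, and Cald1, caldesmon, which restrains myosin on actin, had log2 differences of -0.32 ± 0.21 and -0.09 ± 0.14 (SE). With d/d 1 left out Lmod1 was at -0.54 and Cald1 at -0.22. With d/d 2 left out Lmod1 was at -0.14 and Cald1 at -0.04. The values of Acta2, Actg2 and Cnn2 in each array were chosen for display after they were seen, as were those of Myh11, Des, Flna, Kcnmb1, Itga8 and Gja1 below.

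**Figure D2:**
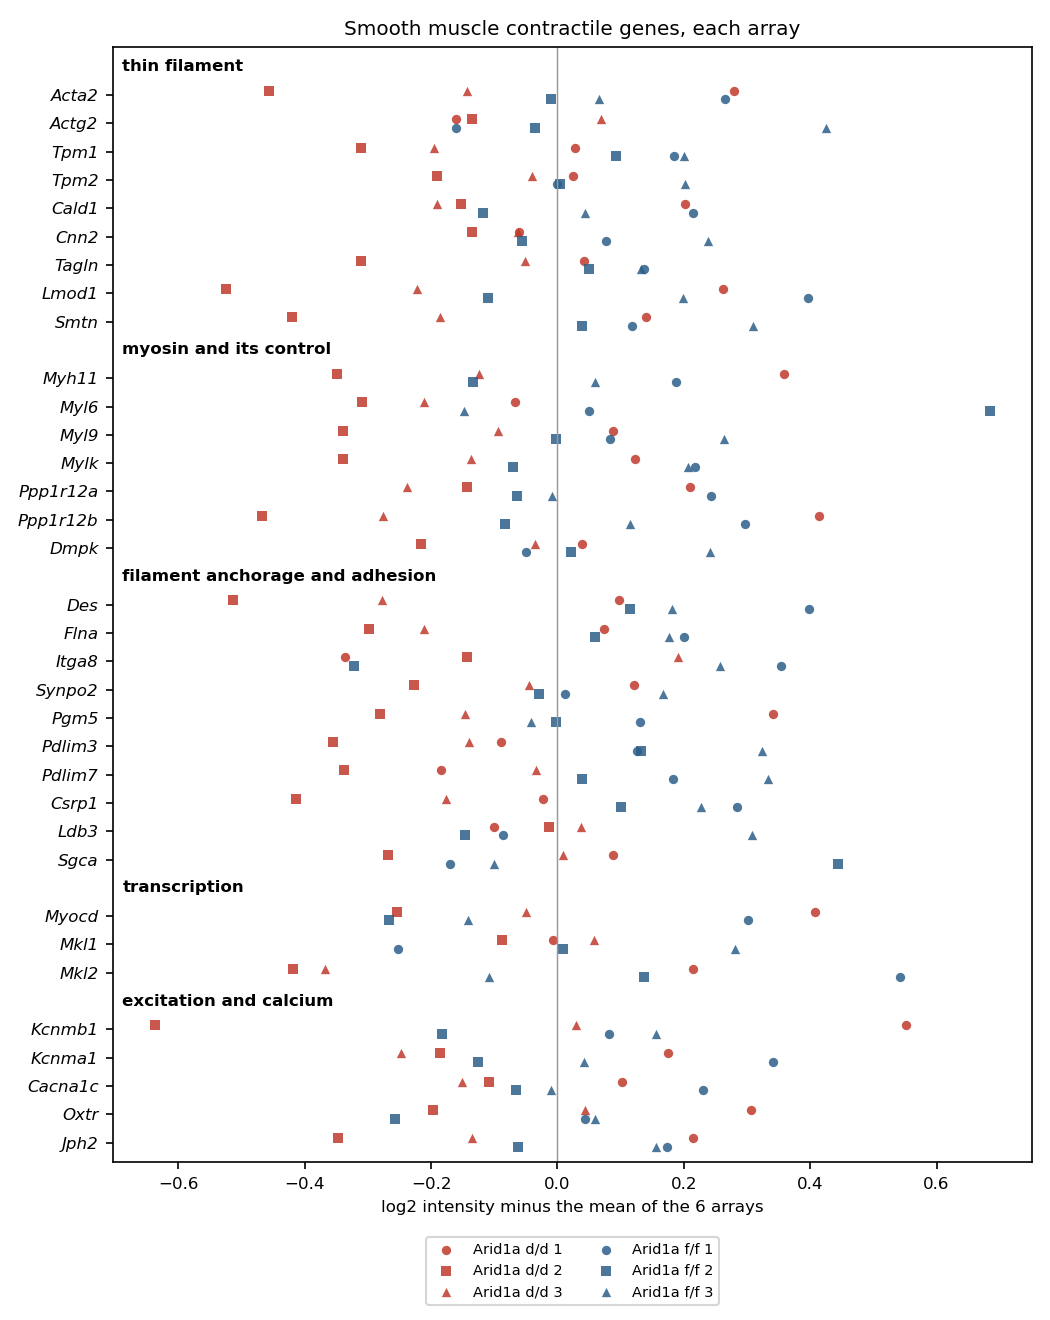
Each row is 1 gene; the 6 points are its log2 intensity in each array minus the mean of the 6 arrays, with d/d arrays in red, f/f arrays in blue, and circle, square and triangle for arrays 1, 2 and 3. The d/d 2 square was the lowest point for 24 of the 34 genes, whereas the d/d 1 circle was the highest for 8.

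Myosin and its regulators were lower in d/d uteri for 7 of 7 measured, with a median log2 difference of -0.22 (-0.33 without d/d 1, -0.07 without d/d 2), and none passed or had groups without overlap. Myh11, the smooth muscle myosin heavy chain, stood at 9.89, 9.18 and 9.40 in d/d arrays, against 9.71, 9.39 and 9.59 in f/f arrays. Both the highest and the lowest of its 6 values were d/d arrays (log2 difference -0.08 ± 0.18 SE; interval -0.50 to 0.35; -0.27 without d/d 1 and 0.079 without d/d 2). Myl9, the regulatory light chain that is phosphorylated to start contraction, stood at 11.44, 11.01 and 11.25 in d/d arrays, against 11.43, 11.35 and 11.61 in f/f arrays. Mylk, the kinase that phosphorylates it, stood at 11.08, 10.62 and 10.82 in d/d arrays, against 11.18, 10.89 and 11.16 in f/f arrays. Both genes showed the same order within d/d, with d/d 1 inside the range of the f/f arrays, and similar log2 differences of -0.23 ± 0.13 and -0.24 ± 0.14 (SE). All 3 probe sets of Mylk were lower in d/d, at -0.24, -0.15 and -0.25.

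Myl6, the essential light chain, stood at 6.98, 6.74 and 6.83 in d/d arrays, against 7.09, 7.73 and 6.90 in f/f arrays. Its difference of -0.39 ± 0.20 (SE) leaned on f/f 2: without that array it was -0.15. A further 2 probe sets list Myl6 together with 2 other genes and were not used. Ppp1r12a and Ppp1r12b, the targeting subunits of myosin phosphatase, had log2 differences of -0.11 ± 0.14 and -0.22 ± 0.22, and Dmpk, a kinase named for myotonic dystrophy, -0.14 ± 0.11 (SE). For Ppp1r12b d/d 1 was the highest of the 6, at 8.59, and d/d 2 the lowest, at 7.71, and the difference was -0.48 without d/d 1 and -0.04 without d/d 2. Ppp1r12a was at -0.25 without d/d 1.

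Among genes that anchor the filaments, 10 of 10 measured were lower in d/d uteri, with a median log2 difference of -0.24 (-0.31 without d/d 1, -0.19 without d/d 2), and 4 of the 7 genes whose groups did not overlap belonged here. The mean level of the 10 was 7.42, 7.14 and 7.34 in d/d arrays, against 7.56, 7.46 and 7.60 in f/f arrays, which made it the 1 role of 5 in which all d/d means lay below all f/f means. The mean over all genes was without overlap too, at 4.377 to 4.386 in d/d, against 4.389 to 4.405 in f/f. Its difference was smaller, at -0.013 against -0.24 for the anchorage genes. Csrp1, a LIM protein of actin bundles, stood at 9.57, 9.18 and 9.42 in d/d arrays, against 9.88, 9.69 and 9.82 in f/f arrays. No d/d array reached the f/f range (log2 difference -0.41 ± 0.12 SE; limma adjusted p = 0.195). Its other probe set stood at 8.86, 8.50 and 8.70 in d/d arrays, against 9.21, 9.26 and 9.36 in f/f arrays. That probe set had the smallest adjusted p of the 73 and still missed the threshold (-0.59 ± 0.11 SE; limma adjusted p = 0.0755 over probe sets).

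Pdlim3 and Pdlim7 encode PDZ and LIM proteins that sit on actin filaments. Pdlim3 stood at 9.07, 8.81 and 9.02 in d/d arrays, against 9.29, 9.29 and 9.48 in f/f arrays (log2 difference -0.39 ± 0.11 SE; limma adjusted p = 0.168). Pdlim7 stood at 7.28, 7.13 and 7.43 in d/d arrays, against 7.65, 7.51 and 7.80 in f/f arrays (-0.37 ± 0.12 SE; limma adjusted p = 0.237). Neither gene overlapped between the genotypes, and the highest d/d array was d/d 1 for Pdlim3 and d/d 3 for Pdlim7. The second probe set of Pdlim7 gave -0.30 with groups that did not overlap.

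Des, or desmin, the intermediate filament of muscle, had the most negative difference of the 34. It stood at 8.10, 7.48 and 7.72 in d/d arrays, against 8.40, 8.11 and 8.18 in f/f arrays. Here d/d 1 came close to f/f 2, although the groups did not overlap (log2 difference -0.46 ± 0.16 SE, or 0.726 of the f/f level; limma adjusted p = 0.291). Without d/d 1 its difference was -0.63 and its limma adjusted p 0.0335, with 4.88% of all genes past the threshold in that fit and 2.93% lower, and it was the 1 gene of the 34 that passed there. Flna, the actin crosslinker filamin A, stood at 9.65, 9.28 and 9.36 in d/d arrays, against 9.78, 9.64 and 9.75 in f/f arrays (-0.29 ± 0.11 SE; limma adjusted p = 0.368). Its d/d 1 value just exceeded f/f 2, so the groups overlapped.

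The other anchorage genes differed less. Itga8, an integrin of mesenchyme and smooth muscle, broke the pattern of arrays: it stood at 6.35, 6.54 and 6.87 in d/d arrays, against 7.04, 6.36 and 6.94 in f/f arrays, with d/d 1 and f/f 2 lowest. Synpo2 and Pgm5, proteins of dense bodies and adhesion plaques, had log2 differences of -0.10 ± 0.11 and -0.06 ± 0.16 (SE), which without d/d 1 were -0.19 and -0.24. Ldb3 and Sgca, better known from striated muscle, averaged 2.78 and 2.95 in d/d, against 2.83 and 3.06 in f/f. Those levels are close to 2.69, the median over all probe sets, and background limits such a comparison.

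Of the transcription factors, Myocd encodes myocardin, the cofactor of serum response factor restricted to heart and smooth muscle. Myocd stood at 6.36, 5.69 and 5.90 in d/d arrays, against 6.25, 5.68 and 5.81 in f/f arrays. The groups overlapped throughout and the difference was slightly positive (0.07 ± 0.20 SE; interval -0.40 to 0.54). Mkl2, or MRTF-B, stood at 8.32, 7.69 and 7.74 in d/d arrays, against 8.65, 8.25 and 8.002 in f/f arrays, so that d/d 1 exceeded 2 of the f/f arrays (-0.38 ± 0.21 SE; limma adjusted p = 0.569; -0.58 and 0.118 without d/d 1). Mkl1, or MRTF-A, stood at 4.56, 4.48 and 4.62 in d/d arrays, against 4.31, 4.57 and 4.84 in f/f arrays (-0.02 ± 0.14 SE). The median of the 3 factors was -0.02, and it was -0.12 without d/d 1 and 0.013 without d/d 2. Myocd took the opposite sign without d/d 1, at -0.12.

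Of the genes of excitation and calcium handling 4 of 5 were lower in d/d, with a median log2 difference of -0.10 and none past the threshold. All 5 were lower without d/d 1, with a median of -0.30, and without d/d 2 it was -0.05 with 3 of 5 lower. Jph2, junctophilin, which ties the plasma membrane to the calcium store, stood at 7.38, 6.82 and 7.04 in d/d arrays, against 7.34, 7.11 and 7.33 in f/f arrays. Cacna1c, the pore of the L-type calcium channel, stood at 4.85, 4.64 and 4.59 in d/d arrays, against 4.98, 4.68 and 4.73 in f/f arrays. Kcnma1, the pore of the large-conductance potassium channel that damps contraction, stood at 4.54, 4.18 and 4.11 in d/d arrays, against 4.70, 4.24 and 4.40 in f/f arrays. All 3 had d/d 1 inside or above the f/f range and the other d/d arrays below every f/f array. Their log2 differences were -0.18 ± 0.15, -0.10 ± 0.11 and -0.17 ± 0.16 (SE).

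Kcnmb1, the smooth muscle subunit of that potassium channel, spanned more within d/d than any other of the 34, at 4.55, 3.36 and 4.03 in d/d arrays, against 4.08, 3.82 and 4.16 in f/f arrays. Its difference was -0.04 ± 0.27 (SE), and its sign depended on the array left out, from -0.32 without d/d 1 to 0.27 without d/d 2. Oxtr, the oxytocin receptor, which drives contraction at birth, averaged 2.63 ± 0.25 in d/d and 2.53 ± 0.18 in f/f (SD, n = 3), under the 2.69 named above in d/d as in f/f.

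The spread between arrays of 1 genotype was as large as the difference for most of the 34. For 31 of them the range within d/d or within f/f exceeded the difference between the genotypes. The share of all genes for which this held was not counted, so it is not read as particular to the 34. It was d/d 1 that lay above both other d/d arrays for 29 of the 34, against 36.5% of all genes, and d/d 2 was the lowest d/d array for 27, against 33.1%. The mean level of the 34 genes was 7.68, 7.27 and 7.45 in d/d arrays 1, 2 and 3, against 7.72, 7.56 and 7.71 in f/f arrays. The mean of d/d 1 thus lay within the f/f range and the other 2 below it.

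The size of the shift moved with single arrays. Without d/d 1 all 34 differences were below 0, the median was -0.29, and for 24 of the 34 neither remaining d/d array reached the lowest f/f array, against 19.5% of all genes. Without d/d 2 the median was -0.09, 28 were below 0, and the smallest adjusted p was 0.521. The number of calls over all genes also changed with the array left out, and its share without d/d 2 is not given. A count of 0 past the threshold without d/d 2, wherever stated, is therefore not read as a result about the genes counted. Without both arrays numbered 1 the median was -0.28, with 31 below 0 and 3 above, and Des had the smallest limma adjusted p, 0.0721.

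**Figure D3:**
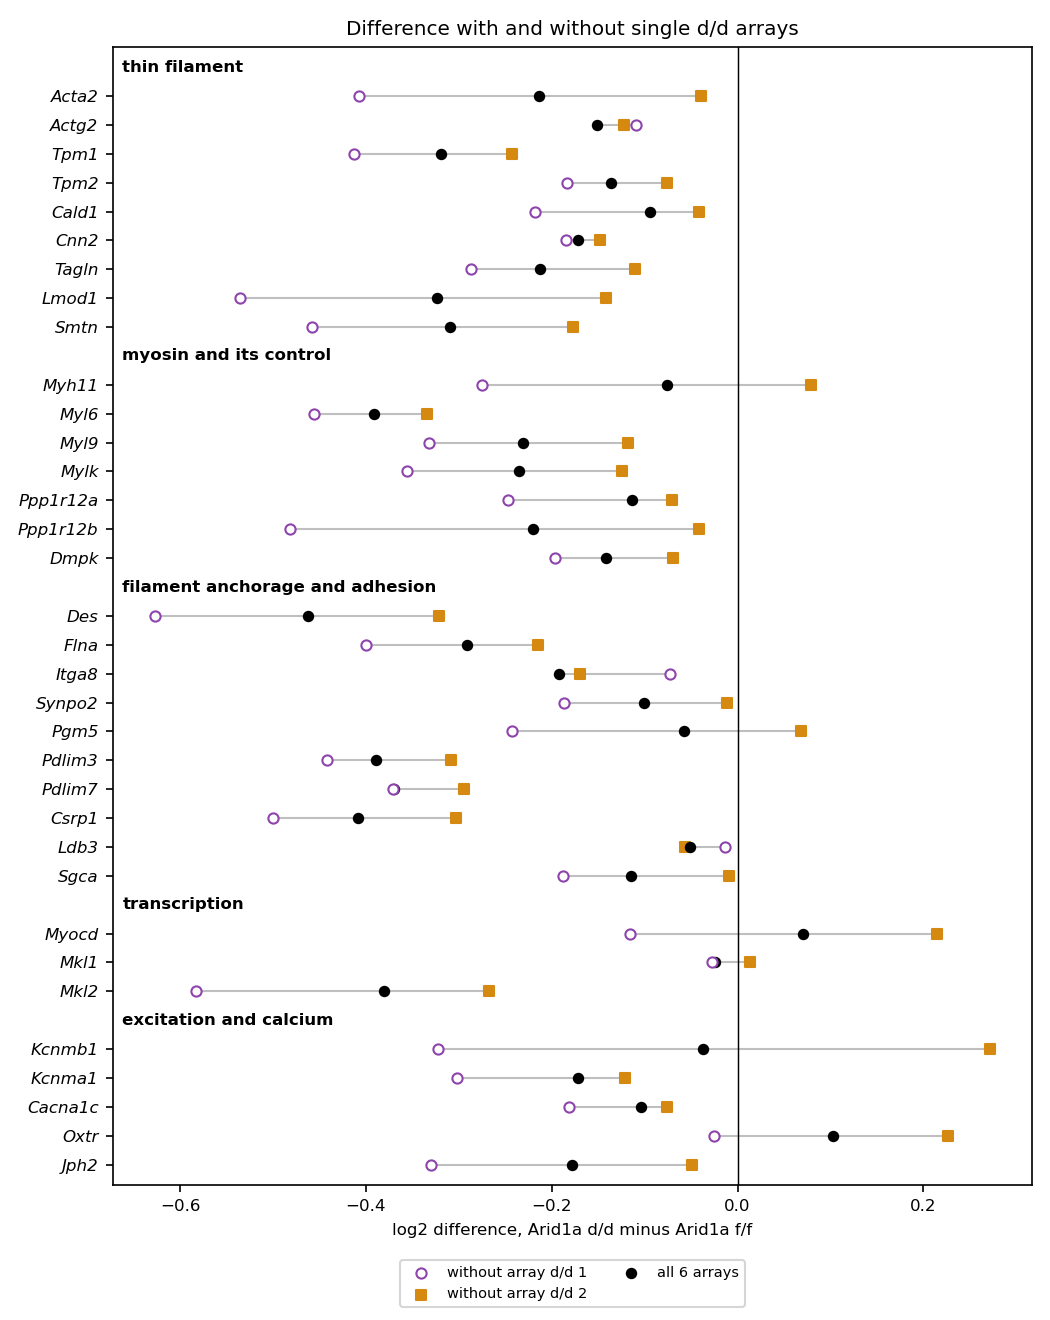
Log2 difference (Arid1a d/d minus Arid1a f/f) of each gene without array d/d 1 (open purple circles), without array d/d 2 (orange squares) and with all 6 arrays (black). Open circles lie below 0 for all 34 genes; squares lie above 0 for 6, among them Kcnmb1 at 0.27.

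Read 1 by 1, the probe sets of these genes leaned mostly the same way. Of the 73 probe sets, 59 were lower in d/d, against 51.3% of all probe sets on the array. Above the median of all probe sets lay 57 of the 73, and 50 of these 57 were lower. The share lower among all probe sets above that median was not counted. The 57 include the brightest probe set of 33 of the 34 genes, on which the counts above rest. They are therefore not a separate line of support. Among the 16 dim ones, 9 were lower and 7 higher. None of the 73 passed in limma, with 0.524% of all probe sets past the threshold; 11 were lower and 1 higher at an unadjusted p under 0.05, against 5.07% of all probe sets lower at that p. Of 14 genes with more than 1 bright probe set, 9 had all of them on 1 side of 0. The exceptions were Tpm1, Tpm2, Cald1, Ppp1r12b and Jph2.

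Related genes outside the 34 gave a mixed picture. Of 23 measured genes of contractile signalling and uterine activation 0 passed and 16 were lower, with a median log2 difference of -0.20. The median was -0.28 without d/d 1 and 4 passed, Cacna2d1, Ptgfr, Gucy1a1 and Gucy1b1, all lower, and without d/d 2 it was -0.06 with 0 past. In the fit without d/d 1, 4.88% of all genes passed, and 2.93% of all genes were past it and lower. Cacna1h, a T-type calcium channel, stood at 2.99, 2.95 and 3.01 in d/d arrays, against 3.82, 3.23 and 3.43 in f/f arrays (-0.52 ± 0.15 SE; limma adjusted p = 0.183). Gucy1b1, a subunit of the nitric oxide receptor, had -0.73 ± 0.22 (limma adjusted p = 0.207). Gja1, the gap junction protein connexin 43 that couples muscle cells before birth and is also made by other uterine cells, went the other way, at 9.28, 9.60 and 9.46 in d/d arrays, against 9.08, 9.08 and 9.19 in f/f arrays (0.33 ± 0.10 SE; limma adjusted p = 0.249).

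Of 28 measured actin and adhesion genes, of which some, such as Actb, are made by most cells and others, such as Dmd, mainly by muscle, 0 passed and 21 were lower, with a median of -0.09. Without d/d 1 the median was -0.15 and 2 passed, Itga1 and Lims2, both lower, against 2.93% of all genes lower past the threshold in that fit. Without d/d 2 the median was -0.04 with 0 past. Itga1, a collagen-binding integrin, stood at 5.59, 5.42 and 5.55 in d/d arrays, against 6.05, 5.87 and 6.13 in f/f arrays (-0.49 ± 0.10 SE; limma adjusted p = 0.0749). Cav1, caveolin, had -0.42 ± 0.10 (limma adjusted p = 0.107). Both are also made by endothelium and other cells, and their groups did not overlap.

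Markers of other cells that share genes with smooth muscle were read on the same arrays, and their part in the result was not tested. All 7 measured pericyte markers were lower, with a median of -0.29 (-0.42 without d/d 1, -0.21 without d/d 2) and 0 past the threshold with or without either array. Their mean level was 6.51, 6.16 and 6.22 in d/d arrays, against 6.70, 6.50 and 6.61 in f/f arrays. The 2 of smallest p were Cspg4, the proteoglycan NG2, at -0.58, and Ndufa4l2 at -0.39 (limma adjusted p of 0.0936 and 0.128). Array d/d 1 was highest among the d/d arrays here too.

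The means of the endothelial, fat and stromal lists were lower as well, with no overlap between the genotypes. The mean over all genes did not overlap either, but its difference was smaller, at -0.013 against -0.55, -0.97 and -0.29. The 7 endothelial markers averaged between 5.82 and 6.35 in d/d, against 6.56 to 6.67 in f/f (median difference -0.63), with 0 past the threshold. The 2 of smallest p were Emcn at -0.67 and Esam at -0.71, while Cdh5 had the most negative difference, -0.75. The 7 fat markers averaged between 4.22 and 5.0001 in d/d, against 5.23 to 5.91 in f/f (median -1.16, 0 past), with Retn at -1.46 and Adipoq at -1.59. The 12 stromal markers averaged between 9.34 and 9.55 in d/d, against 9.65 to 9.84 in f/f (median -0.31). Of these 12, 11 were lower, and Thy1 was the 1 that passed, at -1.06 ± 0.13 (SE; limma adjusted p = 0.0155). The 1 that was higher, Vcan, a matrix proteoglycan, was at 0.69 ± 0.20 with groups that did not overlap (limma adjusted p = 0.195), and it was named after its values were seen. Without d/d 1 the medians were -0.75, -1.53 and -0.41 for endothelium, fat and stroma, with 5 and 4 markers lower past the threshold in the first pair and, in stroma, 2 lower and 1, Vcan, higher. In that fit 4.88% of all genes passed, and 2.93% of all genes were past it and lower. Without d/d 2 the 3 medians were -0.46, -0.96 and -0.26, and 0 markers passed. The contractile median of -0.17 was thus nearer to 0 than the medians of these lists.

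The mean of the epithelial list went the other way, between 7.32 and 7.46 in d/d, against 7.003 to 7.15 in f/f, with a median difference of 0.61. Of the 11 measured, 8 were higher and 3 lower, and 2 higher and 1 lower were past the threshold. Muc1 and Cdh1 were the 2 higher past it, at 1.03 and 1.00, and Foxa2 the 1 lower, at -1.41 (limma adjusted p of 0.0178, 0.0314 and 0.0116). Ehf at -0.53 and Cldn3 at -0.18 were lower without passing. The 11 cell cycle markers, of which 0 passed (median 0.29; the 2 of smallest p were Mcm6 at 0.79 and Mcm3 at 0.51), averaged 5.27, 7.05 and 6.84 in d/d arrays, against 5.65, 5.82 and 6.65 in f/f arrays. Within d/d the array with the highest contractile mean had the lowest cell cycle mean, and the array with the lowest had the highest. Within f/f this order was not seen, since f/f 3 had the highest cell cycle mean beside a contractile mean of 7.71, and f/f 2 a mean of 5.82 beside the lowest contractile mean, 7.56. The cell cycle median was 0.92 without d/d 1 and -0.11 without d/d 2, with 0 past in either case. The epithelial median was 0.64 without d/d 1, with 6 markers higher and 2 lower past the threshold, against 4.88% of all genes past it in either direction. Without d/d 2 the epithelial median was 0.54 with 0 past.

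Striated muscle was looked for because Des, Ldb3, Jph2 and Sgca are also made there. Of its 20 measured markers, 15 averaged under 2.69, among them the fast myosins Myh1, Myh2 and Myh4, Ttn, Neb, Myod1 and Myog. The list averaged between 2.45 and 2.49 in d/d, against 2.41 to 2.55 in f/f, with a median difference of -0.03 (0.014 without d/d 1, -0.02 without d/d 2) and 0 past the threshold in any of the 3 fits. Acta1, skeletal actin, was the exception in level, at 7.70, 8.09 and 8.31 in d/d arrays, against 8.14, 8.74 and 9.19 in f/f arrays (-0.66 ± 0.26 SE; limma adjusted p = 0.377). Mybpc2 had the smallest p of the list (0.67; limma adjusted p = 0.0957).

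**Figure D4:**
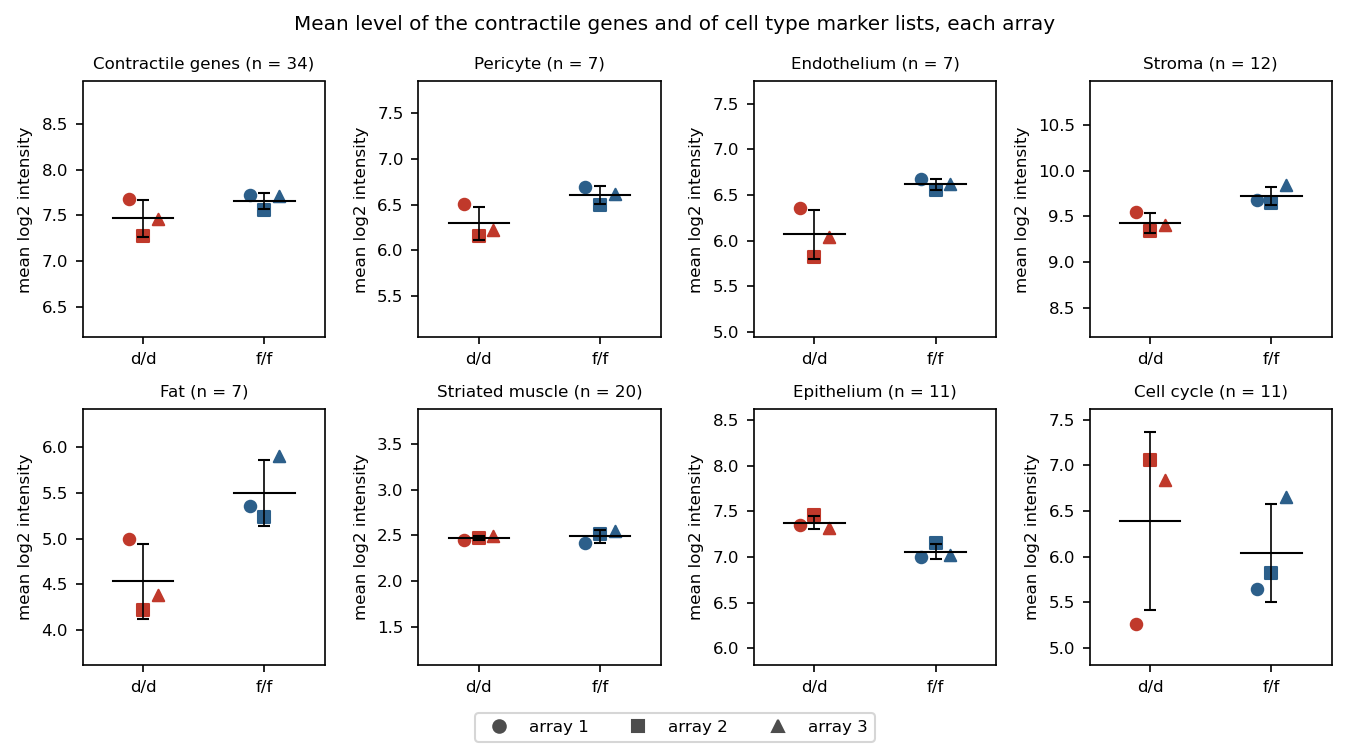
Mean log2 intensity of the 34 contractile genes and of the marker lists, with d/d arrays (red) left of f/f arrays (blue), array 1, 2 and 3 as circle, square and triangle, and the bars the mean and SD over 3 arrays. All panels span the same number of log2 units; the contractile mean of d/d 1, 7.68, lay within the f/f range of 7.56 to 7.72, whereas the endothelial, fat and stromal means did not overlap between genotypes. The mean over all genes, not shown, did not overlap either, with a difference of -0.013.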

How the data were processed

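Biotin-labelled cRNA from 500 ng of total RNA of each uterus sample was hybridised, per the labels' protocols. The authors deposited a linear intensity for each probe set on each array; RMA (background correction, normalization between arrays and summary of probes) is the method in the submitters' processing notes, with no version. RMA pulls differences at the dim end towards 0. Log2 was taken with no added constant; the number of arrays limits the precision. Of 41420 probe sets, 31562 had 1 gene symbol in the platform annotation, 830 several and 9028 none; a gene was its probe set of highest mean. The test of d/d against f/f was that of limma 3.58.1 (R 4.3.3; lmFit, eBayes, 4 residual degrees of freedom, with 3.66 prior ones over genes and 4.19 over probe sets, 2-sided, Benjamini-Hochberg over all genes or all probe sets). The p-values rest on how far these arrays of 1 genotype differ, which may be technical. The steps were tested on simulated data.

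The members and lists were chosen with earlier results of these data known. Values per array are given for the 3 of smallest p and the 1 of highest level in each role, beside those said to be chosen after they were seen. Of each related list the genes that passed, or otherwise the 2 of smallest p, are named with at least their difference. Roles and lists without d/d 1 or d/d 2 were added after the data were seen. Alternatives tried were array weights, a block for the replicate number, a robust fit with a variance trend, repeated quantile normalization, median centring, leaving out dim or _x_at probe sets, the mean of all probe sets, adjustment over probe sets, a threshold of 0.10, and leaving out arrays.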

Additional observations from a re-analysis of the deposited data

How the results depend on the processing

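No member of the 34 passed under array weights, a replicate block, a robust fit with a variance trend, repeated quantile normalization, median centring, either probe set filter, the mean of all probe sets, adjustment over all probe sets or a threshold of 0.10, with the smallest adjusted p of each between 0.0709 (replicate block) and 0.218. Leaving out each array in turn gave 0 to 1 members past the threshold, the 1 being Des without d/d 1, and a median difference from -0.29 to -0.09. Over all genes the calls numbered 457 with the replicate block, 381 with array weights, 403 at 0.10 and 540 without both arrays numbered 1, against 192, and 26 to 821 with each array left out. Apart from the looser threshold, the cause of these changes was not tested. Equal replicate numbers were not treated as pairs, because the correlation of deviations from the genotype means was uneven. It was 0.545, 0.0195 and 0.307 for numbers 1, 2 and 3, and d/d 2 went best with f/f 3. With 3 arrays per genotype the deviations sum to 0, so these correlations cannot exclude a batch shared by equal numbers. The block changed no member's call. Some genes changed sign, none past the threshold on either side: Myocd with array weights (-0.0019), Cald1 (0.0016) and Kcnmb1 (0.026) with the mean of all probe sets, and Itga8, at -0.19 with all arrays, (0.057) without both arrays numbered 1. With single arrays left out the differences ranged from -0.12 to 0.24 for Myocd, -0.025 to 0.23 for Oxtr, -0.27 to 0.079 for Myh11, -0.24 to 0.068 for Pgm5, -0.16 to 0.11 for Mkl1, -0.32 to 0.27 for Kcnmb1, -0.23 to 0.078 for Sgca, -0.27 to 0.023 for Actg2 and -0.14 to 0.090 for Ldb3. Among medians of roles and lists, transcription (0.013) and cell cycle (-0.113; 0.92 without d/d 1) changed sign without d/d 2, and striated muscle (0.014; -0.021 without d/d 2) without d/d 1, an alternative chosen after seeing the data. The dim genes Oxtr, Ldb3 and Sgca are limited by background.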
